A study of Mus musculus with 5 samples.

Results

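The genes described here serve the endoplasmic reticulum (ER), the compartment in which secreted and membrane proteins are made and folded, and the stress response that adjusts it. They are 38 genes picked by symbol from a deposited table of 23420 mouse genes, and each of the 38 symbols was found in the table. No cut on their measured values was applied, but the choice was made with earlier results of these data known. The table holds RNA-seq counts of the uterine luminal layer in early pregnancy, cut by laser microdissection from frozen sections, in 5 libraries. Wild-type C57BL/6N females were used throughout, with the day of the vaginal plug as day 1, and no age is given. The groups were the mornings of days 3 and 4, the evening of day 4 and, on day 5 morning, the luminal layer away from the embryo (the M pole) and around the embryo (the AM pole). Nearness to the embryo and position at a pole therefore cannot be told apart. On day 3 the oviducts were flushed to check for cleaving embryos, and on day 4 the uterine horn that was not frozen was flushed to check for blastocysts. Day 5 mice received Chicago blue dye in the blood, which marks implantation sites. Each group is 1 library with no replicate, and whether several mice were pooled in it is not stated, so no test between conditions was possible and no p-value is given.

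Library totals lay between 15334674 and 19529491 counts, with 15274 to 15888 genes counted in each. The rRNA transcript Rn45s and the gene Lars2 together took 15.0% to 23.2% of the counts, and levels are therefore given as CPM, the counts scaled to 1000000, after trimmed-mean (TMM) scaling. A gene was kept with a mean of at least 1 CPM, which left 12916 genes. All 38 members passed, Ern1 and Derl3 through the day 5 libraries alone. A difference is the log2 change of CPM with 2 counts added, a gene is called past 2-fold when that change is at least 1 in size, and square brackets give the exact 95% interval of the count ratio, which covers counting error only. The epithelial markers Krt8, Krt18, Epcam and Cdh1 had at least 7016 counts in every library. The 12 luminal epithelium markers as a list summed to 5210 CPM away from the embryo, 8571 CPM around it and 6501 to 8410 CPM before day 5. Relative to day 4 evening, 2 of the 12 were past 2-fold higher and 4 lower away, and 4 were higher and 3 lower around, with Lrp2 at -6.11. Between the poles 6 of 12 were higher around the embryo and 1 lower, with a median change of 1.09. From day 4 evening the median of the 12 was -0.50 away and 0.65 around, beside 0.41 and 1.19 for the 38 members. The markers thus shared the direction of the members around the embryo and between the poles, and not away from it. Their part in the day 5 values given below was not tested. In bulk RNA, fewer cells of a type and less RNA per cell cannot be told apart.

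The library from around the embryo also held counts of marker genes of other cells. The blastocyst transcription factors Pou5f1 (68 counts), Gata4 (54), Cdx2 (22) and Nanog (10) were counted in it, and all 4 were at 0 in the other libraries. Of the 14 embryo and trophoblast markers, 13 were counted there against 7 or 8 in the others. Their summed level was 2566 CPM there against 867 to 3035 CPM, most of it Sox17 and Gata2, which the earlier libraries also expressed. Muscle and decidual genes were high there too, with 6090 counts of Des and 2282 of Hand2 against 369 and 389 in the library away from the embryo. The 14 stroma and muscle markers summed to 785 CPM there and to 527 to 610 CPM elsewhere, while the matrix genes Col3a1, Dcn and Lum were lowest there. As a list they did not move alike: between the poles 5 were past 2-fold higher around the embryo and 4 lower, with a median of 0.54. The 6 endothelium and blood markers in the table summed to 95.3 CPM there and to at most 40.5 CPM elsewhere, with Hba-a1 at 0 throughout. Of the 4 that were tested, 1 was past 2-fold higher around the embryo than away and 1 lower, with a median of -0.23. The 8 gland markers in the table summed to 31.5 CPM there, 241 CPM on day 3 morning and at most 16.2 CPM in the others, with Ttr at 0 throughout. The 7 immune markers in the table summed to 38.9 to 54.1 CPM in all 5 libraries, but of the 6 that were tested 5 were past 2-fold lower around the embryo than away from it and 1, Cd68, was higher (1.74). Ncr1 had 0 counts around the embryo and Ptprc 66, against 86 and 250 away from it. The part of other cells in the values around the embryo was not tested. Bulk RNA cannot tell their presence from expression in the luminal layer itself.

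A trio of membrane proteins of the ER senses unfolded protein. Ern1 (IRE1alpha) splices Xbp1 RNA into the form that encodes an active transcription factor, Eif2ak3 (PERK) slows translation and thereby favours synthesis of Atf4, and Atf6 is cut in the Golgi to release a transcription factor. Their targets are the folding helpers of the ER lumen, the machinery of ER-associated degradation that returns misfolded proteins to the proteasome, and, downstream of Atf4, the genes of the integrated stress response. Secretory epithelia keep much of this machinery at a high level. Gene counts cannot tell spliced from unspliced Xbp1 RNA, nor whether a sensor is active.

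Day 5 around the embryo was the library in which most of the 38 genes were highest. It held the highest CPM of 32 of the 38, against 3 for day 4 morning, 2 for day 3 morning, 1 for day 4 evening and 0 for day 5 away. Of all 12916 genes, 30.1% were highest in that library, beside 84.2% of the members. The lowest level fell on day 4 morning for 19 genes, day 4 evening for 12, day 3 morning for 5 and day 5 away for 2. Over all genes these shares were 18.1%, 14.3%, 19.9% and 15.3%, and 31.1% were lowest around the embryo, where 0 members were. Summed over the 38 genes, the level was 6700, 5202 and 5587 CPM in the 3 libraries before day 5, then 8656 CPM at the M pole and 14172 CPM at the AM pole. Without Xbp1 the sum was 5075 CPM on day 4 evening, 5818 CPM at the M pole and 10231 CPM at the AM pole.

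**Figure D1:**
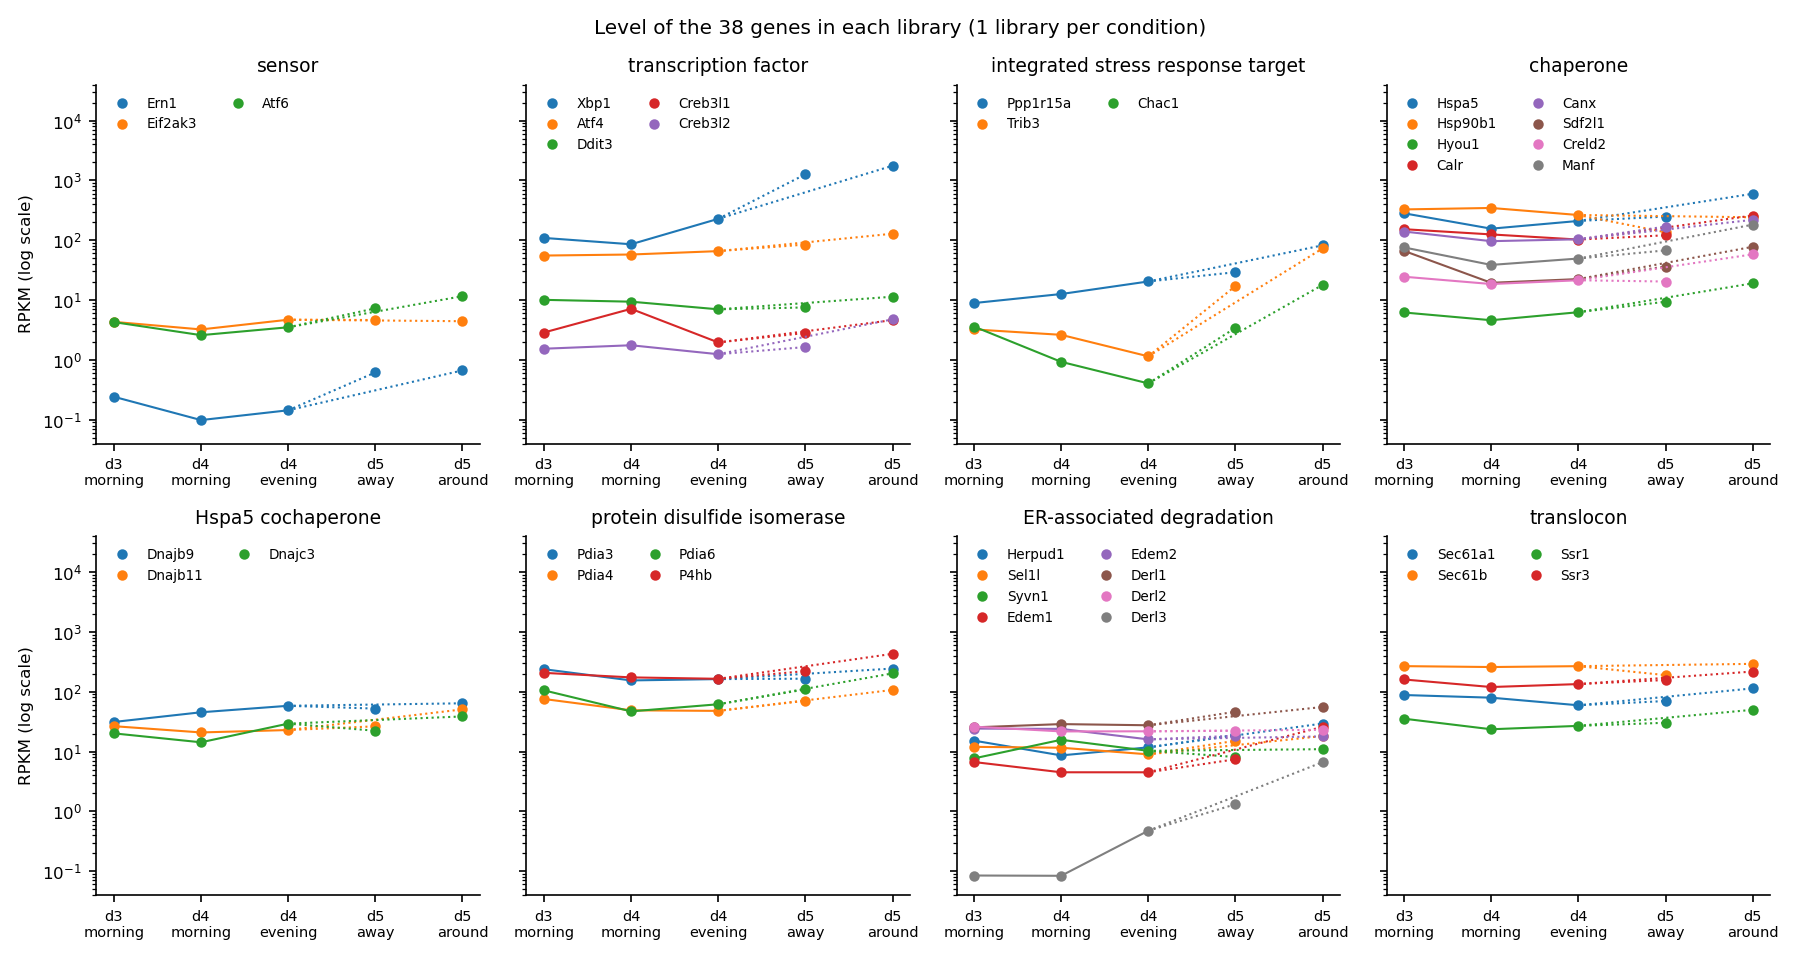
Level of all 38 members in each of the 5 libraries, in panels by role, as RPKM (CPM per kilobase of gene length) on a log axis, each point 1 library, solid lines joining days 3 and 4 and dotted lines joining day 4 evening to each day 5 library, with no error bar because no condition has a replicate. Xbp1, at 228 RPKM on day 4 evening, was at 1263 and 1754 RPKM in the day 5 libraries, and Trib3, Chac1 and Derl3 span the widest ranges.

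The counts of members past 2-fold were read beside the same counts over all 12916 genes. From day 3 to day 4 morning, 2 of 38 were higher and 4 lower, with 8.02% of all genes higher and 10.9% lower. The median change of the members was -0.35 against 0.04 for all genes, and 30 of the 38 were below 0. With library totals in place of TMM these counts were 0 higher and 8 lower, beside 4.16% and 17.1% of all genes, whose median moved to -0.29. From day 4 morning to evening, 3 members were higher and 3 lower (7.17% and 6.98% of all genes), with a median of 0.12 against 0.00.

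Day 5 differed more. Away from the embryo, 6 of 38 members (15.8%) were past 2-fold higher than on day 4 evening and 0 lower, beside 12.7% and 12.9% of all genes, so the share of higher members lay near that of all genes. Their median was 0.41 and 31 of 38 were above 0. Around the embryo, 24 of 38 (63.2%) were higher and 0 lower than on day 4 evening, beside 19.3% and 20.4% of all genes. The median was 1.19 against -0.01, and 36 of 38 were above 0. Ern1 and Derl3, which passed the filter through day 5 alone, are in both counts of higher members. With a mean of at least 5 CPM, which removed them, 4 of 36 were higher away and 22 of 36 around. The shares of all genes at that level were 10.8% and 17.3%. Just inside the threshold were Sel1l (1.01) and Derl1 (1.01), and just outside it Atf4 (0.97) and Sec61a1 (0.94). Between the day 5 libraries, 12 members (31.6%) were higher around the embryo and 0 lower, beside 13.8% and 14.4% of all genes, with a median of 0.70 against -0.02. These comparisons share libraries, and their counts are not independent of each other.

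Of the 24 genes higher around the embryo, 6 were past 2-fold in both day 5 libraries (Atf6, Chac1, Derl3, Ern1, Trib3 and Xbp1) and 18 only around it, while 0 were past 2-fold only away from it. Ern1 and Derl3 passed the filter through the day 5 libraries alone, and are also in the counts by role below. Another 12 genes stayed within 2-fold in all 5 comparisons, among them the sensor Eif2ak3, the chaperone Hsp90b1 and the 4 translocon genes. How many of all genes fall in each of these patterns was not counted, so the patterns are not read as particular to the members. By role, the genes past 2-fold higher around the embryo than on day 4 evening were 2 of 3 sensors, 3 of 5 transcription factors, 3 of 3 integrated stress response targets, 7 of 8 chaperones, 1 of 3 Hspa5 cochaperones, 3 of 4 protein disulfide isomerases, 5 of 8 degradation genes and 0 of 4 translocon genes.

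**Figure D2:**
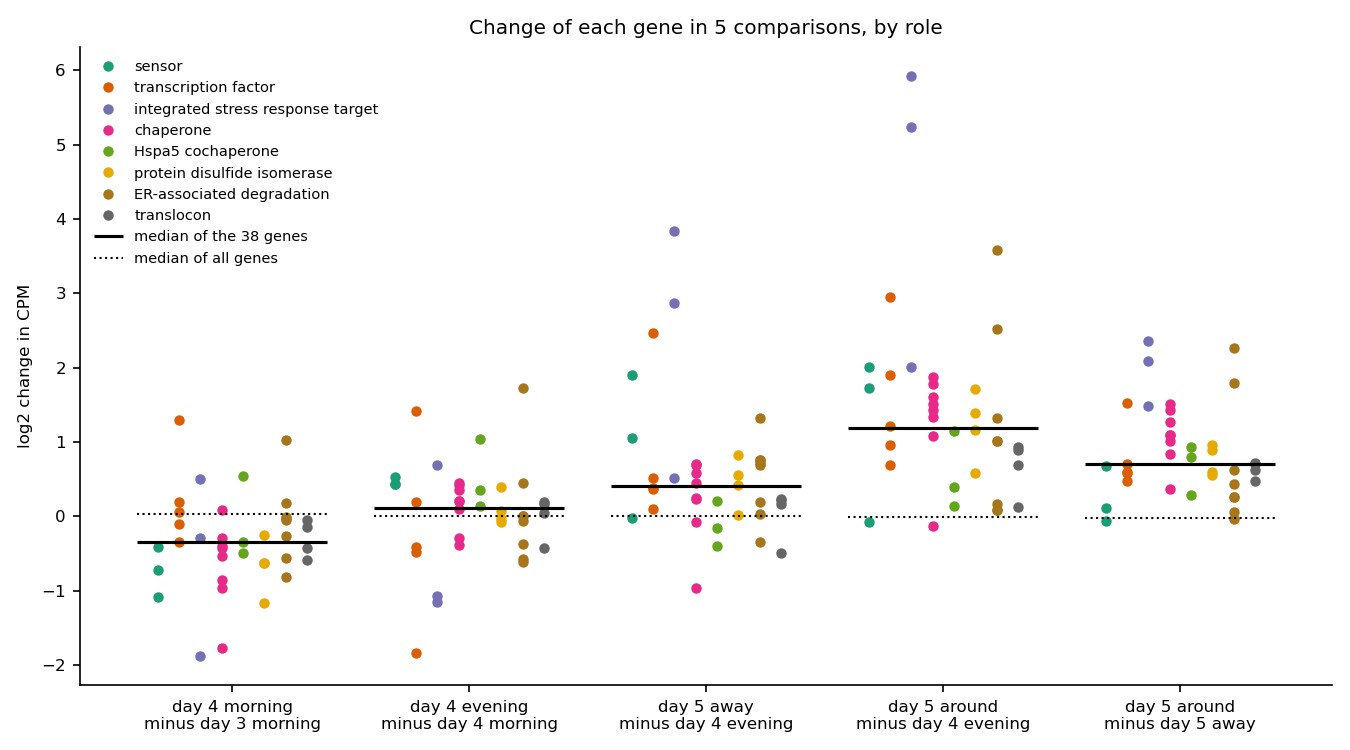
Log2 change in CPM of each member (vertical axis) in the 5 comparisons (horizontal axis), each point 1 gene coloured by role, with the median of the 38 genes as a solid line and that of all 12916 genes as a dotted line. The member medians were -0.35, 0.12, 0.41, 1.19 and 0.70, while the medians of all genes lay between -0.02 and 0.04.

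The 3 sensors were low in level and did not move alike. Atf6 had 564, 345, 412, 1017 and 1470 counts in the libraries from day 3 morning to day 5 around, in the order given above. It was lowest on day 4 morning and highest around the embryo, and its log2 change from day 4 evening was 1.05 [0.88, 1.22] away and 1.72 [1.57, 1.89] around. Ern1 had the lowest mean CPM of the 38 genes, with 17, 7, 9, 46 and 45 counts. Both day 5 values lay above the 3 earlier ones, by 1.90 [1.05, 3.32] away and 2.01 [1.16, 3.43] around relative to day 4 evening, and the day 5 libraries did not differ beyond counting error (0.11 [-0.51, 0.74]). Between day 3 and day 4 morning Ern1 was past 2-fold lower (-1.09), with an interval from -2.81 to 0.05 that reaches 0. Eif2ak3 had 343, 259, 332, 391 and 338 counts and was at 14.5 to 21.1 CPM, the flattest of the sensors, with changes of -0.02 and -0.08 on day 5.

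Xbp1 had the largest change in absolute level of the transcription factors. The gene lies on chromosome 11 from 5520641 to 5525993 in GRCm38 and had 4333, 3433 and 8055 counts up to day 4 evening, then 53271 away from the embryo and 66935 around it. It was already higher on day 4 evening than in the morning, by 1.41 [1.35, 1.47], and from that evening the change was 2.47 [2.44, 2.51] away and 2.95 [2.91, 2.98] around. Of all genes tested, 2.73% had a larger change away and 5.04% a larger one around. Per kilobase (RPKM), Xbp1 ranked 647, 907, 316, 29 and 26 of 12916 genes in the 5 libraries, so that on day 5 it was among the most abundant RNAs of the layer at both poles. The difference between the poles was 0.47 [0.46, 0.49], within 2-fold.

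Atf4, the factor made when translation is slowed by PERK, had 1688, 1776, 1785, 2736 and 3760 counts. It was above day 4 evening in both day 5 libraries, by 0.36 away and 0.97 [0.88, 1.05] around, without passing 2-fold. The ratio of Xbp1 to Atf4 per kilobase was 1.97, 1.48 and 3.46 up to day 4 evening, then 14.9 away and 13.7 around. Ddit3 (CHOP), a factor that Atf4 induces and that promotes cell death under lasting stress, stayed between 96 and 168 counts, with changes of 0.10 [-0.29, 0.51] away and 0.69 [0.33, 1.08] around. Its exons overlap those of Mars on the opposite strand (89 to 249 counts), and since the use of strand in counting is not stated, reads of the pair may be mixed.

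Creb3l1 and Creb3l2 encode relatives of Atf6 that are likewise cut in the Golgi and are known for raising secretory capacity. Creb3l1 had 115, 289, 70, 120 and 178 counts and was highest on day 4 morning, at 1.30 [1.0, 1.64] over day 3, then lower by evening (-1.84 [-2.26, -1.48]). Its change of 1.22 around the embryo therefore starts from its lowest library, and against day 4 morning the value around the embryo was -0.62. Creb3l2 had 90, 104, 65, 102 and 268 counts, with only the library around the embryo standing above the rest, by 1.91 [1.54, 2.35] over day 4 evening and 1.52 [1.20, 1.88] over day 5 away.

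Among the 3 targets of the integrated stress response, Trib3 and Chac1 had the largest changes of the 38 genes from day 4 evening to either pole, and Ppp1r15a changed less. Trib3, a pseudokinase induced by Atf4 and CHOP, had 117, 96 and 37 counts up to day 4 evening, then 660 away and 2537 around. It was lower on day 4 evening than in the morning (-1.16 [-1.78, -0.63]), and its changes from the evening were 3.84 [3.43, 4.42] away and 5.92 [5.52, 6.50] around. Chac1, an enzyme that breaks down glutathione, had 100, 26, 10, 101 and 477 counts. Its level fell by 1.88 on the log2 scale from day 3 to day 4 morning and by 1.07 by evening, and day 5 away (5.38 CPM) was back near day 3 (5.66 CPM), with 28.1 CPM around the embryo. Its changes from day 4 evening, 2.87 [2.15, 4.19] and 5.23 [4.58, 6.54], thus start from a low point of 10 counts. Of all genes, 0.84% had a larger change than Trib3 at the M pole and 1.08% at the AM pole, while for Chac1 these shares were 1.79% and 1.70%.

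Ppp1r15a (GADD34), which guides the phosphatase that ends the translation block, was higher at each later time and higher around the embryo than away, with 367, 525, 751, 1278 and 3254 counts. The changes were 0.50 and 0.70 over the day 3 to day 4 intervals, 0.51 [0.38, 0.65] from day 4 evening to day 5 away and 2.0 [1.89, 2.12] to day 5 around. All 3 targets were past 2-fold higher around the embryo than away from it, by 2.36 [2.07, 2.71] for Chac1, 2.08 [1.96, 2.21] for Trib3 and 1.49 [1.40, 1.59] for Ppp1r15a. The ratio of Trib3 to Ddit3 per kilobase was 0.321, 0.279 and 0.164 before day 5, then 2.28 away and 6.41 around.

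**Figure D3:**
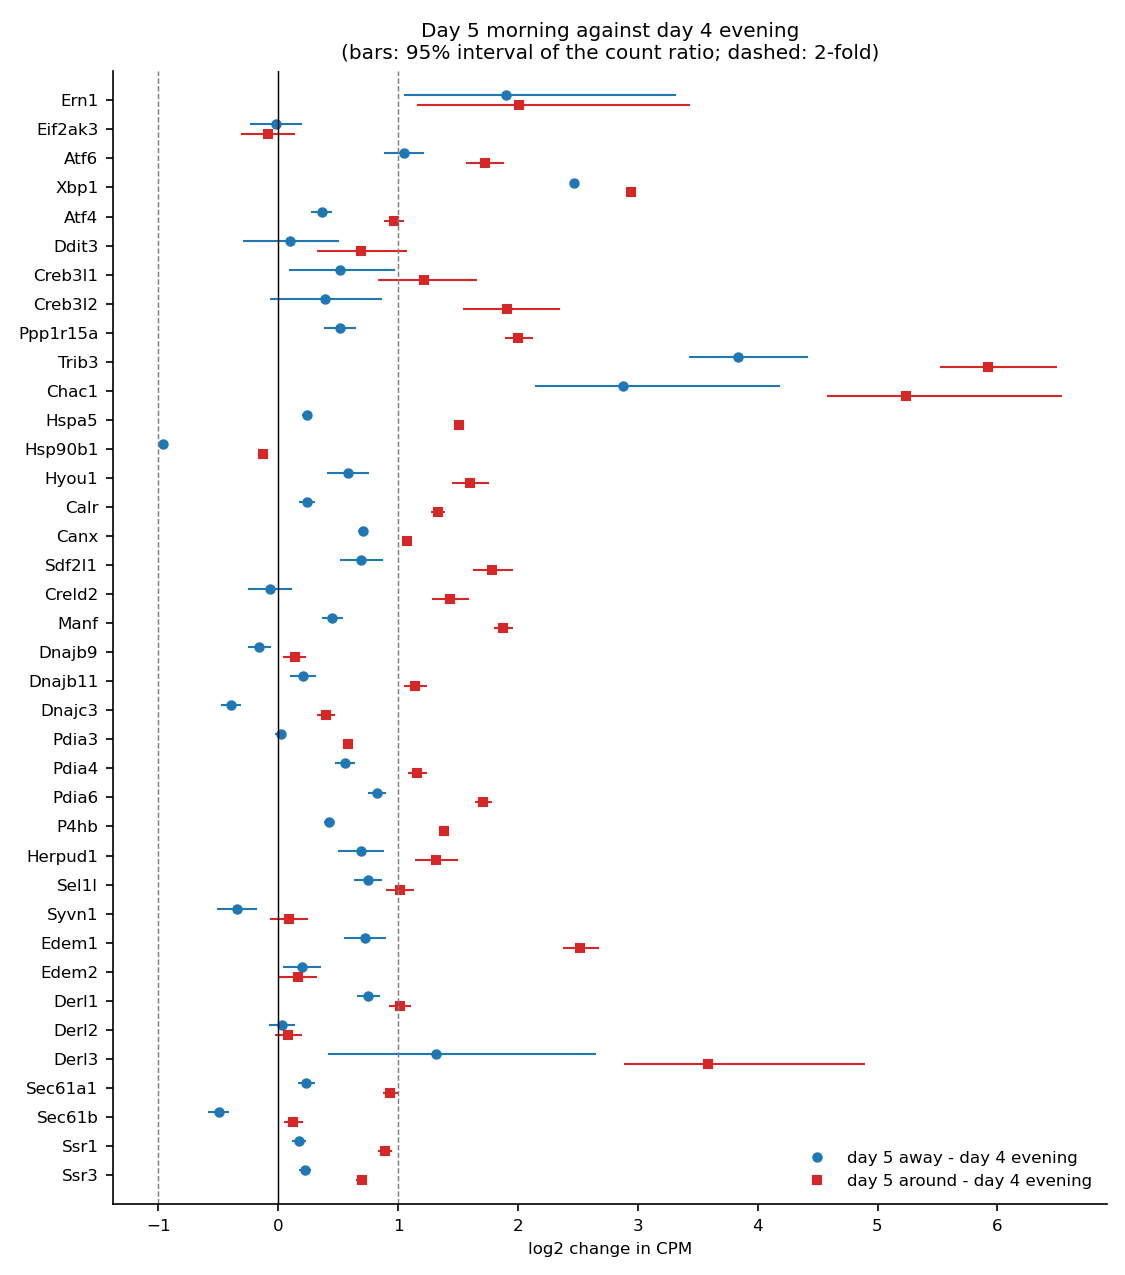
Log2 change from day 4 evening for each member, by role, at each pole of day 5, with exact 95% counting intervals as bars. The values around the embryo lie to the right of those away for 36 of 38 members, with Eif2ak3 and Edem2 as the exceptions.

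Promoter sequence was not read in choosing these genes. The choice still took in known targets of Atf6 and Xbp1, so the shares of their sites below are a description and not a test. The RefSeq table of GRCm38.p6 holds promoters of 32 of the 38 genes (not of Atf6, Creb3l1, Derl1, Hyou1, Manf and Sec61a1) among 32851 promoters, each from 250 bases before to 50 after the start. The ER stress response element (ERSE), the letters CCAAT and CCACG with 9 bases of any kind between them, is the textbook site of Atf6 and Xbp1 together with the CCAAT-binding factor NF-Y, and was searched on both strands. It was found in 9 of 32 members (28.1%) and in 39 of all promoters (0.119%). The shorter ERSE-II, ATTGG and CCACG with 1 base between them, was found in Dnajb11 and Herpud1 (6.25%) and in 12 of all promoters (0.0365%). The C/EBP-ATF element TGATGCAA, a site of Atf4, was found in Chac1 and Herpud1 (6.25%) and in 294 of all (0.895%). The Xbp1 site TGACGTGG was found in 0 members and 222 of all (0.676%). ERSE and ERSE-II share the CCACG letters but did not overlap in any member.

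Hspa5 is shown with 160 bases up to its start because it is the classical target, and the others because they span the responses described below, from Derl3 and Creld2, past 2-fold around the embryo, to Hsp90b1, Syvn1 and Dnajc3, which were not. Herpud1 and Chac1 carry the other elements. Capitals mark the fixed letters of the motif, in either direction.
Hspa5 at chr2:34771930-34772089 (plus strand): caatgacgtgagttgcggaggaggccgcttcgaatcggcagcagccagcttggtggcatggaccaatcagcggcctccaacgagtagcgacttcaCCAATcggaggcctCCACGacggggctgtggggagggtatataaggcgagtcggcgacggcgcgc
Derl3 at chr10:75893232-75893270 (plus strand): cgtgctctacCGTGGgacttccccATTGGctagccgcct
Creld2 at chr15:88819510-88819548 (plus strand): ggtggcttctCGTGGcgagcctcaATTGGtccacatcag
Hsp90b1, nearer match, at chr10:86705523-86705561 (minus strand): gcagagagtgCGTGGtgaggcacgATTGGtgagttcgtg
Hsp90b1, farther match, at chr10:86705628-86705666 (minus strand): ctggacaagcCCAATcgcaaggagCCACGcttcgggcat
Syvn1 at chr19:6046522-6046560 (plus strand): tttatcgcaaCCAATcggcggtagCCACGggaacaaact
Dnajc3 at chr14:118937817-118937855 (plus strand): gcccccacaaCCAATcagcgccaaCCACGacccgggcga
Herpud1, ERSE-II, at chr8:94386367-94386397 (plus strand): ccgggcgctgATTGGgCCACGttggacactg
Herpud1, C/EBP-ATF element, at chr8:94386307-94386334 (plus strand): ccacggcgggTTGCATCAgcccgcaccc
Chac1, C/EBP-ATF element, at chr2:119351039-119351066 (plus strand): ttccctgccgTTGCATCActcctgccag

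The other members with ERSE were Calr, Canx and Pdia6. Around the embryo 6 of the 9 members with ERSE were past 2-fold higher than on day 4 evening, with a median of 1.33 and a range from -0.13 (Hsp90b1) to 3.59 (Derl3). Of the 23 members with a promoter but no ERSE, 13 were past 2-fold higher, with a median of 1.14. Derl3 is among the 6 and Ern1 among the 13, and both passed the filter through the day 5 libraries alone. Away from the embryo the medians were 0.24 with ERSE and 0.39 without. A further 28 genes outside the list hold an ERSE, of which 8 were tested, and 3 of those were past 2-fold higher around the embryo, with a median of 0.31. A match of letters is a description of the window and not a binding site, and members with and without the element overlapped in their changes.

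**Figure D4:**
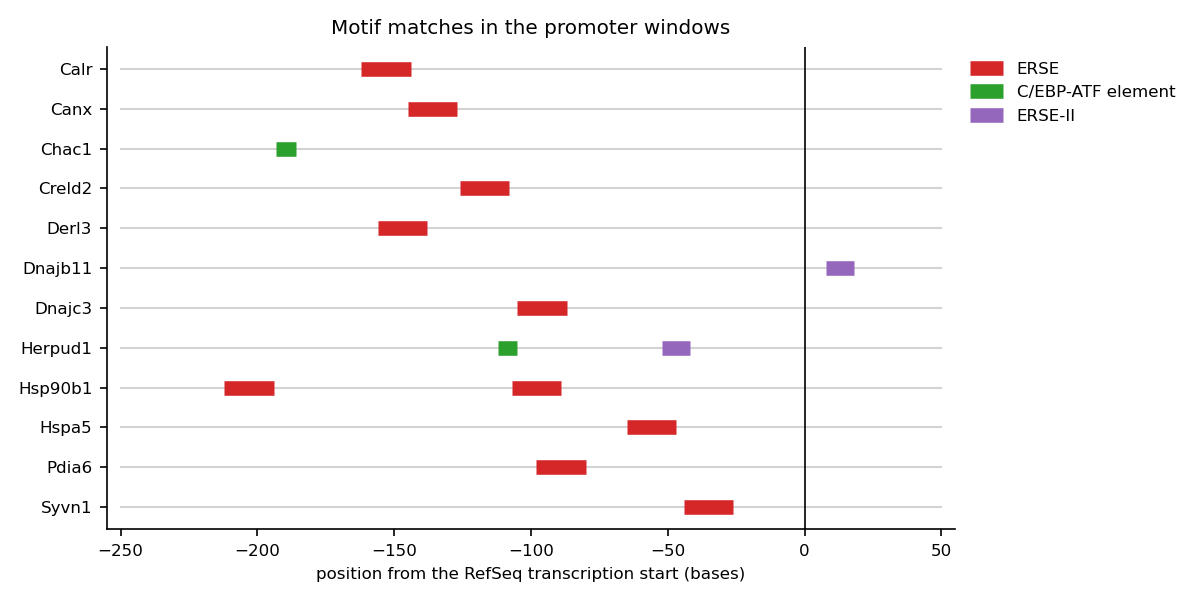
Positions of the ERSE, ERSE-II and C/EBP-ATF matches in the promoters of the 12 members that hold any, in bases from the RefSeq start (the window runs from 250 before to 50 after), 1 row per gene. The ERSE matches lie from 212 to 26 bases before the start, Hsp90b1 has 2 of them, and the ERSE-II match of Dnajb11 lies after its start.

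Among the 8 chaperones, 7 were past 2-fold higher around the embryo than on day 4 evening, and 0 were away from it. Hspa5 (BiP), the main chaperone of the ER lumen and the one whose release wakes the sensors, had 13017, 7280, 8643, 12185 and 26510 counts. Day 3 morning and day 5 away were close, at 737 and 649 CPM, and the library around the embryo was above both at 1561 CPM. The change was 0.24 [0.20, 0.28] away, 1.51 [1.47, 1.54] around and 1.27 [1.23, 1.30] between the poles. Hsp90b1 (GRP94), the ER form of Hsp90, went the other way at the M pole, with 15936, 17035, 11454, 7024 and 11322 counts. It was lowest away from the embryo (-0.96 [-1.0, -0.92]) and near its evening level around it (-0.13 [-0.16, -0.09]). The ratio of Hspa5 to Hsp90b1 per kilobase was 0.861, 0.451 and 0.796 before day 5, then 1.83 away and 2.47 around, so that Hsp90b1 was the more abundant of the pair up to day 4 evening and Hspa5 on day 5.

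Hyou1, the large Hsp70 of the ER that exchanges nucleotides on BiP, had 485, 364, 437, 780 and 1432 counts, with changes of 0.58 and 1.60. Manf, a secreted survival factor that binds BiP, had 2951, 1522, 1716, 2797 and 6814 counts, with changes of 0.45 [0.36, 0.54] and 1.88 [1.80, 1.96]. Sdf2l1, a partner of ER J-domain proteins, had 1297, 384, 391, 755 and 1459 counts. From day 3 to day 4 morning its change was -1.77 [-1.94, -1.61], next to Chac1 the lowest among the members, and around the embryo it was back near day 3 (85.9 against 73.4 CPM). Creld2, an ER protein with isomerase activity, had 591, 451, 460, 522 and 1344 counts. Away from the embryo its change from day 4 evening was within counting error (-0.07 [-0.25, 0.11]), and it was 1.43 [1.28, 1.59] higher around it.

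Calr and Canx are the lectin chaperones that hold newly made glycoproteins. Calr had 5242, 4334, 3136, 4407 and 8519 counts and Canx 10581, 7379, 6999, 13609 and 15939. In CPM Calr was lowest on day 4 evening and Canx on day 4 morning, and both were highest around the embryo. Relative to day 4 evening, the M pole was 0.71 [0.66, 0.75] higher for Canx and 0.24 [0.17, 0.30] higher for Calr. Between the poles Calr passed 2-fold (1.09) and Canx did not (0.37).

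The J-domain partners of BiP were less uniform. Dnajb11 (ERdj3), a soluble cochaperone, had 1517, 1205, 1166, 1602 and 2782 counts and was 1.14 [1.05, 1.25] higher around the embryo. Dnajc3 (p58IPK), which also restrains PERK, had 1845, 1323, 2392, 2169 and 3401 counts, and its largest step was from day 4 morning to evening (1.03 [0.94, 1.13]). Dnajb9 (ERdj4), often used as a target of spliced Xbp1, had 1028, 1509, 1708, 1827 and 2027 counts, and stayed between -0.16 and 0.14 in the changes from day 4 evening to day 5, while Xbp1 itself was past 2-fold higher.

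Of the disulfide isomerases, Pdia6 had the widest range, with 3956, 1780, 2064, 4354 and 7301 counts. It dropped by 1.17 from day 3 to day 4 morning and was 0.82 [0.75, 0.90] higher than on day 4 evening at the M pole and 1.71 [1.64, 1.79] at the AM pole. P4hb (PDI itself) had 9261, 7861, 6567, 10524 and 18509 counts and Pdia4 3311, 2165, 1868, 3283 and 4507, with changes around the embryo of 1.39 and 1.16. Pdia3 (ERp57), the partner of Calr and Canx, had 11097, 7281, 6761, 8180 and 10930 counts and stayed within 2-fold, its level around the embryo (644 CPM) close to that on day 3 morning (628 CPM). The ratio of Pdia6 to Pdia3 per kilobase was 0.443, 0.304, 0.380, 0.662 and 0.830.

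In ER-associated degradation, 5 of 8 genes were past 2-fold higher around the embryo than on day 4 evening and 1, Derl3, also away from it. Edem1, which directs misfolded glycoproteins to degradation, had 691, 471, 415, 817 and 2576 counts, with changes of 0.72 [0.55, 0.90] away and 2.52 [2.38, 2.68] around. Its relative Edem2 had 980, 979, 577, 790 and 697 counts and changes of 0.20 and 0.16. Derl3, the stress-induced derlin of secretory cells, had 2, 2, 10, 33 and 151 counts. It was under the limit of 3 counts in the first pair of libraries, and its changes from day 4 evening were 1.32 [0.41, 2.66] away and 3.59 [2.89, 4.90] around. Derl1 (1409, 1615, 1361, 2732 and 2965 counts) was 0.75 and 1.01 higher on day 5, and Derl2 (1667, 1404, 1243, 1512 and 1421 counts) changed by 0.03 [-0.08, 0.14] and 0.08 [-0.03, 0.20].

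Syvn1 (HRD1), the ubiquitin ligase of the pathway, was highest on day 4 morning, with 496, 1026, 592, 556 and 680 counts. It was 1.03 [0.88, 1.19] higher there than on day 3, and its day 5 changes were -0.34 and 0.09. Its exons overlap those of Mrpl49 on the opposite strand, which had 824 to 1480 counts, so its own values are uncertain. Sel1l, the adaptor of Syvn1, had 1333, 1302, 891, 1789 and 1943 counts, and Herpud1, which assembles the complex, had 503, 288, 346, 666 and 933. Both were past 2-fold higher around the embryo, at 1.01 and 1.32.

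The 4 translocon genes stayed within 2-fold in all 5 comparisons. Sec61a1, the channel through which proteins enter the ER, had 4725, 4312, 2839, 3984 and 5862 counts, and Sec61b, a small subunit of it, 2608, 2547, 2323, 1961 and 2737. The translocon-associated proteins Ssr1 (5816, 3916, 3936, 5286 and 7876 counts) and Ssr3 (8157, 6167, 6093, 8492 and 10644 counts) are thought to help proteins through it. Around the embryo the changes of the 4 genes from day 4 evening ranged from 0.13 to 0.94. Sec61b was lower away from the embryo (-0.50 [-0.58, -0.41]).

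Other genes of the pathway were taken from 7 lists of 142 genes that hold no member. Their counts are read beside the shares of all genes given above, 12.7% higher and 12.9% lower for the M pole, 19.3% and 20.4% for the AM pole, both relative to day 4 evening, and 13.8% and 14.4% between the poles. Of the 20 other ER folding enzymes tested, 3 (15.0%) were past 2-fold higher and 1 lower at the M pole than on day 4 evening. At the AM pole 4 (20.0%) were higher, a share near that of all genes, and 0 lower, with a median of 0.55. Between the poles 4 were higher around the embryo and 1 lower, with a median of 0.36. Ero1l, the oxidase that recharges PDI, had 219, 149, 199, 620 and 2931 counts, and was 1.38 and 3.76 higher. Sil1, an exchange factor of BiP, was lower around the embryo than away from it (-1.39). Earlier, Prdx4 (-1.28) was lower on day 4 morning than on day 3, and Txndc5 (-1.06) on day 4 evening than in the morning.

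In the next 4 lists the shares past 2-fold higher at the AM pole than on day 4 evening, 5.88% to 13.6%, were below that of all genes. Of 17 N-glycosylation genes, only Mogs (glucosidase I) passed 2-fold on day 5, at 1.19 away and 1.14 around, and the median around was 0.63. Of 18 other translocon and signal peptidase genes, 2 were higher and 1 lower around the embryo, with Spcs3 at 1.50, Sec11c at -1.37 and a median of 0.12. Of 19 genes in the other degradation list, 2 were higher and 0 lower, with a median of 0.43. They were the ubiquitin-conjugating enzyme Ube2j1 at 2.19 and Stc2 at 4.08. Stc2 encodes a secreted protein and is not itself a part of the degradation machinery. It went from 7 counts on day 4 evening to 159 around the embryo. Its level was under that set for naming, and it was named after its value was seen. Of 22 ER to Golgi transport genes, 3 were higher and 1 lower, with the KDEL receptor Kdelr3 at 2.48, the COPII coat gene Sec23b at -1.43 and a median of 0.39. Between the poles the genes past 2-fold higher around the embryo were 0 of the N-glycosylation list, 0 of the translocon list, 2 of the degradation list and 2 of the transport list, with 1 transport gene lower and medians from 0.21 to 0.37. Before day 5, Kdelr1 was 1.22 higher on day 4 morning than on day 3, and by evening Tmed3 was 1.22 higher and Sec23b changed by -1.12.

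Of the 25 other Atf4 and integrated stress response genes, 4 (16%) were past 2-fold higher at the M pole than on day 4 evening and 6 (24.0%) lower, and at the AM pole 9 (36.0%) were higher and 3 (12%) lower, with a median of 0.38. Between the poles 11 (44.0%) were higher around the embryo and 2 (8.0%) lower, with a median of 0.93, beside 31.6% higher and a median of 0.70 for the 38 genes. Slc7a11, the cystine importer, had 2870, 797, 217, 93 and 11309 counts, a change of 5.58 around the embryo from day 4 evening and of 7.04 between the poles. Nupr1, a small stress-induced nuclear protein, had 990, 143, 3103, 14936 and 26628 counts, with -2.79 from day 3 to day 4 morning and 4.60 by evening. Eif4ebp1, a brake on translation, was 3.03 higher away from the embryo, where Vldlr (-2.23) was lower, and around the embryo Aldh18a1, a proline synthesis enzyme, was lower (-1.79). Ddit4 was lower on day 4 evening than in the morning (-2.30), Vldlr was 1.04 higher on day 4 morning than on day 3, and Slc7a5, an amino acid transporter, was lower around the embryo than away (-1.05).

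Heat shock genes of the cytosol and mitochondria were taken as chaperones outside the ER. Of 17, 0 were past 2-fold higher and 3 lower at the M pole than on day 4 evening, and 1 was higher and 3 lower at the AM pole, with a median of 0.02. Between the poles 4 (23.5%) were higher around the embryo and 0 lower, with a median of 0.15. The gene higher than on day 4 evening was Cryab, a small heat shock protein of muscle and lens, with 845, 94, 47, 114 and 5884 counts, a change of 6.81, in the library that also held the Des counts. Dnaja1 was lower away from the embryo (-1.40), and Dnajb4 was lower around it (-1.51). No test of a difference between these lists and the 38 genes was made.

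Between the poles of day 5, 36 of 38 genes were higher around the embryo, under library totals 31 of 38. Pole and nearness to the embryo coincide in these libraries. The 12 past 2-fold were Chac1, Derl3 (2.27), Trib3, Edem1 (1.80), Creb3l2, Creld2 (1.50), Ppp1r15a, Manf (1.43), Hspa5, Calr, Sdf2l1 (1.09) and Hyou1 (1.02). The 26 others included Xbp1, Atf6 and Ern1, which were past 2-fold higher than on day 4 evening at both poles. The median of the members was 0.70 under TMM and 0.36 with library totals, while that of all genes moved from -0.02 to -0.36. A change of scaling shifts all genes by nearly the same amount. The difference of 0.72 between the medians therefore stays by construction and is no check on the scaling.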

How the data were processed

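The authors prepared RNA of luminal layers with SMART-seq v4, sequenced it in paired ends, aligned it with HISAT2 to GRCm38/mm10 and counted it with featureCounts of Subread 2.0.0, per the study's methods. The deposited values are raw counts per gene of 23420 genes, with gene coordinates and lengths. Annotation, strand setting and treatment of multiply mapped reads are not given in the sources used here. Some 27 genes carry names turned into dates.

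From these counts, CPM were computed with TMM factors (edgeR 4.0.16 in R 4.3.3, with DESeq2 1.42.0 for other factors) and Python 3.11.15. Genes averaging 1 CPM or more over the libraries were kept and log2 changes used a prior count of 2. Intervals are Clopper-Pearson intervals at 95%, which cover counting error only. They treat each read as an independent molecule, which amplified reads are not, and may therefore be too narrow even for counting error. A count of 3 was taken as the limit of detection. The interval and change code was tested on simulated data. Members, lists and motifs were chosen with earlier results of these data known. Every member is named. Of each other list the text names the gene with the largest rise and fall past 2-fold in a comparison, among those with a mean of at least 10 CPM. Protein sequences were not analysed here. Other scalings, prior counts, filters and reference libraries were tried, with their effect given at the end.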

Additional observations from a re-analysis of the deposited data

Results flagged for a closer look

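The lumenal cochaperones Dnajb9 and Dnajc3 and the channel subunit Sec61b differed in direction between the poles of day 5. Relative to day 4 evening, Dnajb9 was -0.16 at the M pole (away) and 0.14 at the AM pole (around), Dnajc3 was -0.39 and 0.40, and Sec61b was -0.50 and 0.13, each with a counting interval that excludes 0. With 1 library at each pole, the difference was not tested. Such opposite directions were found in 3 of 38 members (7.89%) and in 1348 of 12916 genes (10.4%), so the share of members is not above that of all genes. With library totals, Dnajb9 was 0.08 away and 0.04 around and Dnajc3 was -0.15 and 0.30, while Sec61b was -0.26 and 0.03. Only Dnajc3 and Sec61b thus kept opposite signs there. Without Rn45s and Lars2 in the totals, Dnajb9 was -0.01 and -0.03, Dnajc3 -0.25 and 0.23, and Sec61b -0.35 and -0.04. Against day 4 morning in place of the evening, Dnajb9 was 0.20 and 0.50 and Dnajc3 0.64 and 1.43, no longer opposite. Sec61b was -0.45 and 0.18 there.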

How the results depend on the processing

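With library totals, the members past 2-fold from day 3 to day 4 morning were 0 higher and 8 lower with a median of -0.68, and 1 higher and 7 lower when Rn45s and Lars2 were left out of the totals. Of all genes, 4.16% were higher and 17.1% lower with library totals, and 5.88% and 14.3% without Rn45s and Lars2. Around the embryo, 24 members were past 2-fold higher than on day 4 evening under TMM. With library totals they were 21, beside 17.6% of all genes, and without Rn45s and Lars2 19, beside 16.9%. Between the day 5 poles, 12 were higher around the embryo under TMM. With library totals and without Rn45s and Lars2 they were 8 and 8, beside 9.97% and 10.4% of all genes, with medians of 0.36 and 0.39. With day 4 morning as the reference of day 5, 10 members were past 2-fold higher and 2 lower at the M pole, beside 14.6% and 14.6% of all genes. Creb3l1 changed sign at the AM pole (-0.62), its own level being highest on that morning. The cause of the other differences was not tested. Of 96 summary values, 87 stayed within 1.5 times the reported count or near the reported median. Of 54 changes past 2-fold, 54 were kept with median-of-ratios factors, 45 with library totals, 44 with totals without Rn45s and Lars2 and 54 with a prior count of 0.5. A mean of at least 5 CPM removed Ern1 and Derl3. The members past 2-fold higher than on day 4 evening were then 4 of 36 at the M pole and 22 at the AM pole. Between the poles 11 were higher around the embryo. The shares of all genes at that level were 10.8%, 17.3% and 11.7%. No paired analysis was possible because each condition has 1 library. For the same reason no library could be left out, and the spread between mice is unknown.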
